A study of Mus musculus with 14 samples.

Results

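The 9 genes described here encode 8 cathepsins, the proteases of the lysosome, and cystatin F, an inhibitor of some of them. They were taken by symbol from each count and FPKM table: Ctsb, Ctsc, Ctsl, Ctss, Ctsw and Ctsz (6 cysteine cathepsins), Ctsd and Ctse (2 aspartic cathepsins) and Cst7 (cystatin F). They are 9 of the 19959 genes listed in any table, and all 9 were found in each of the 3 experiments and passed the filter for testing, a mean FPKM of 1 or more over the libraries of an experiment. FPKM is a fragment count scaled to gene length and library size, so a comparison between genes depends on the gene length used.

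RNA-seq was done on mouse CD8+ T cells recovered from E.G7 tumors, an ovalbumin-expressing lymphoma, in 7 groups of 2 libraries. The first experiment compared tumor-infiltrating lymphocytes (TILs) of Bcl6-RFP reporter mice, sorted on day 21 after tumor cells were placed under the skin into cells labelled Bcl6+, DN and TIM-3+; the labels do not spell out DN. The others compared OT-I cells, T cells whose transgenic antigen receptor recognizes ovalbumin, that overexpressed Prdm1 or Bcl6 with their own co-transferred controls (labelled Prdm1neg and Bcl6neg), sorted from tumors about day 8 after transfer. The labels give neither the vector, the age of the mice nor the host strain, and do not state whether the 2 replicates of a group were different animals, so p-values here measure only the spread between samples.

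Cathepsins are made as inactive precursors and become active in acid lysosomes and in the granules of killer cells. Cathepsin C removes a dipeptide from granzyme precursors and so activates them, and cystatin F, made by cytotoxic and myeloid cells, can hold cathepsin C in check. Most of the other cathepsins degrade protein in the lysosomes of many cell types and are abundant in macrophages, where cathepsin S also trims the invariant chain of MHC class II.

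The libraries held 18309162 to 22322079 counts. In Bcl6-overexpressing cells 13316 and 13165 listed genes had a count, against 15121 and 15147 in controls. Their FPKM summed to 343867 and 324795 against 258148 and 240093. TIM-3+ TILs had 13779 and 13773 genes with a count, Bcl6+ 14463 and 14454 and DN 14623 and 14646. In these 3 groups FPKM summed to 334478 and 336448, 268076 and 268511, and 285341 and 286144. The genes that name the groups followed the labels: Bcl6 measured 407.8 to 429 CPM (counts scaled to library size) in Bcl6+, 90.8 and 94.9 in DN and 14.9 and 18.2 in TIM-3+ TILs, and 67.6 to 94.2 in Bcl6-overexpressing cells against 3.84 and 4.11 in controls, while Prdm1 measured 158 and 195 CPM in Prdm1-overexpressing cells against 90.6 and 110.5. Bcl6 was also higher in Prdm1-overexpressing cells, at 19.9 and 20.7 CPM against 7.79 and 8.96 in their controls. The CD8 gene Cd8a was read at 139 to 567 FPKM in every library. RNA of other cells was present too: the summed level of 18 macrophage and monocyte markers ran from 42.4 to 595 FPKM per library, with no marker at 0 outside TIM-3+ replicate 1, where Mpeg1 and Mrc1 were. In these bulk samples, fewer cells of a type and less RNA per cell cannot be told apart. The Bcl6-overexpressing libraries also differed from their controls by gene length, which was implied from count and FPKM and may not be the transcript length. The 1934 shortest genes (median length 1.74 kb) had a median log2 fold change of 0.65. In the 4 equal groups of longer genes it was -0.15 to -0.01. In the other comparisons the medians of the 5 length groups lay between -0.10 and 0.07.

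By the GENCODE M21 annotation of mm10, all 9 are protein-coding. Ctsc spans 88278085 to 88310888 and Ctsd 142375911 to 142388038 of chromosome 7, on the plus and minus strand. Cst7 spans 150570415 to 150578944 (plus) and Ctsz 174427493 to 174439039 (minus) of chromosome 2. Ctse lies on chromosome 1 from 131638306 to 131675505 (plus), Ctss on chromosome 3 from 95526786 to 95556403 (plus), and Ctsl on chromosome 13 from 64359337 to 64370890 (minus). Ctsb lies on chromosome 14 from 63122462 to 63145923 (plus) and Ctsw on chromosome 19 from 5465043 to 5468507 (minus).

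Promoter sequence is shown for 3 members whose levels set the TIL populations apart: Ctsc and Cst7, the protease and its inhibitor, which were highest in TIM-3+ cells, and Ctsz, which was lowest there. Each line gives the 250 bases before the start of the gene on its own strand, from the RefSeq table for GRCm38.p6 (the mm10 assembly), at chr7:88277835-88278084, chr2:150570165-150570414 and chr2:174439040-174439289. Capitals mark matches, on either strand, to 3 motifs: CACGTG, the core of the element bound by the lysosomal regulator TFEB; GAAAGTG, a core bound by Blimp-1, the product of Prdm1; and TTCCNNGAA, a core bound by BCL6 and STAT proteins.
Ctsc: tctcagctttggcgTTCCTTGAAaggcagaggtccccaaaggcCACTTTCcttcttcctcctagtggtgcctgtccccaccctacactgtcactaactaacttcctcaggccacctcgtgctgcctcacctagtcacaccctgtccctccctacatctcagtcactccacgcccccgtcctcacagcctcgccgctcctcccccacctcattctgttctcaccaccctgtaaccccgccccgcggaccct
Cst7: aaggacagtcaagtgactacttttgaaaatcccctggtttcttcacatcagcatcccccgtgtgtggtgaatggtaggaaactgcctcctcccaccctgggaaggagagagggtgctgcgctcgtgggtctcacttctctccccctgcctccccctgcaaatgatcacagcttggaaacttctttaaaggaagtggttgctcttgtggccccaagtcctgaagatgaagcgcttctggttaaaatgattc
Ctsz: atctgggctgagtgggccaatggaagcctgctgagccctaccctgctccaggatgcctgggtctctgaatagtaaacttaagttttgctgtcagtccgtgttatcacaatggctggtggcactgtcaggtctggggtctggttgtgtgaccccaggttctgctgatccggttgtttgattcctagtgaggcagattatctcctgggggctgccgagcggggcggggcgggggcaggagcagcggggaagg
The Ctsc window held TTCCNNGAA at base -236 and GAAAGTG, on the opposite strand, at base -207 from the gene start. The Cst7 and Ctsz windows held none of the 3 motifs, which says only that these letters are not in these windows. Over 32851 promoter windows of the same length, 4.06% held TTCCNNGAA, 4.01% GAAAGTG and 6.02% CACGTG. Windows for Ctsl, Ctss and Ctsd were searched as well: Ctsd held CACGTG at 2 places and GAAAGTG at 1, Ctsl held CACGTG at 1, and Ctss held none of the 3. The Ctsl window (64370521 to 64370770) lies inside the GENCODE span of the gene given above, so its match is not before that gene start. The Ctsd window (142387828 to 142388077) overlaps the GENCODE span of Ctsd in part. Matches are descriptions of sequence, and no binding was measured.

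The cathepsins and cystatin F split into opposite patterns across the TILs. Ctsc, Ctsd, Ctsb and Cst7 were higher in TIM-3+ than in both other populations, while Ctsz, Ctsl and Ctss were lower there. Between Bcl6+ and TIM-3+ TILs, 7 of 9 members passed the test, 3 higher and 4 lower in Bcl6+ cells, where 38.6% of the 9748 genes tested were called, 19.1% higher and 19.6% lower (edgeR quasi-likelihood test, Benjamini-Hochberg adjusted p under 0.05). Between TIM-3+ and DN TILs, 8 of 9 passed, 4 higher and 4 lower in TIM-3+ cells, where 28.2% of genes were called, 14.9% higher and 13.2% lower. Between Bcl6+ and DN TILs, 3 of 9 passed, all lower in Bcl6+ cells, where 14.2% were called, 6.49% higher and 7.69% lower. Another scaling moved the balance over all genes: TPM (transcripts scaled to a fixed sum) gave 3455 higher and 1123 lower in Bcl6+ against TIM-3+ cells in place of 1857 and 1907, and 819 and 2275 in TIM-3+ against DN cells in place of 1454 and 1291. No called member changed direction with it. The 3 TIL comparisons share libraries, so they are not independent of each other. The median log2 fold change of the 9 was 0.09, -0.22 and 0.03 in these comparisons, beside 0.01, -0.01 and 0.00 over all genes.

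**Figure D1:**
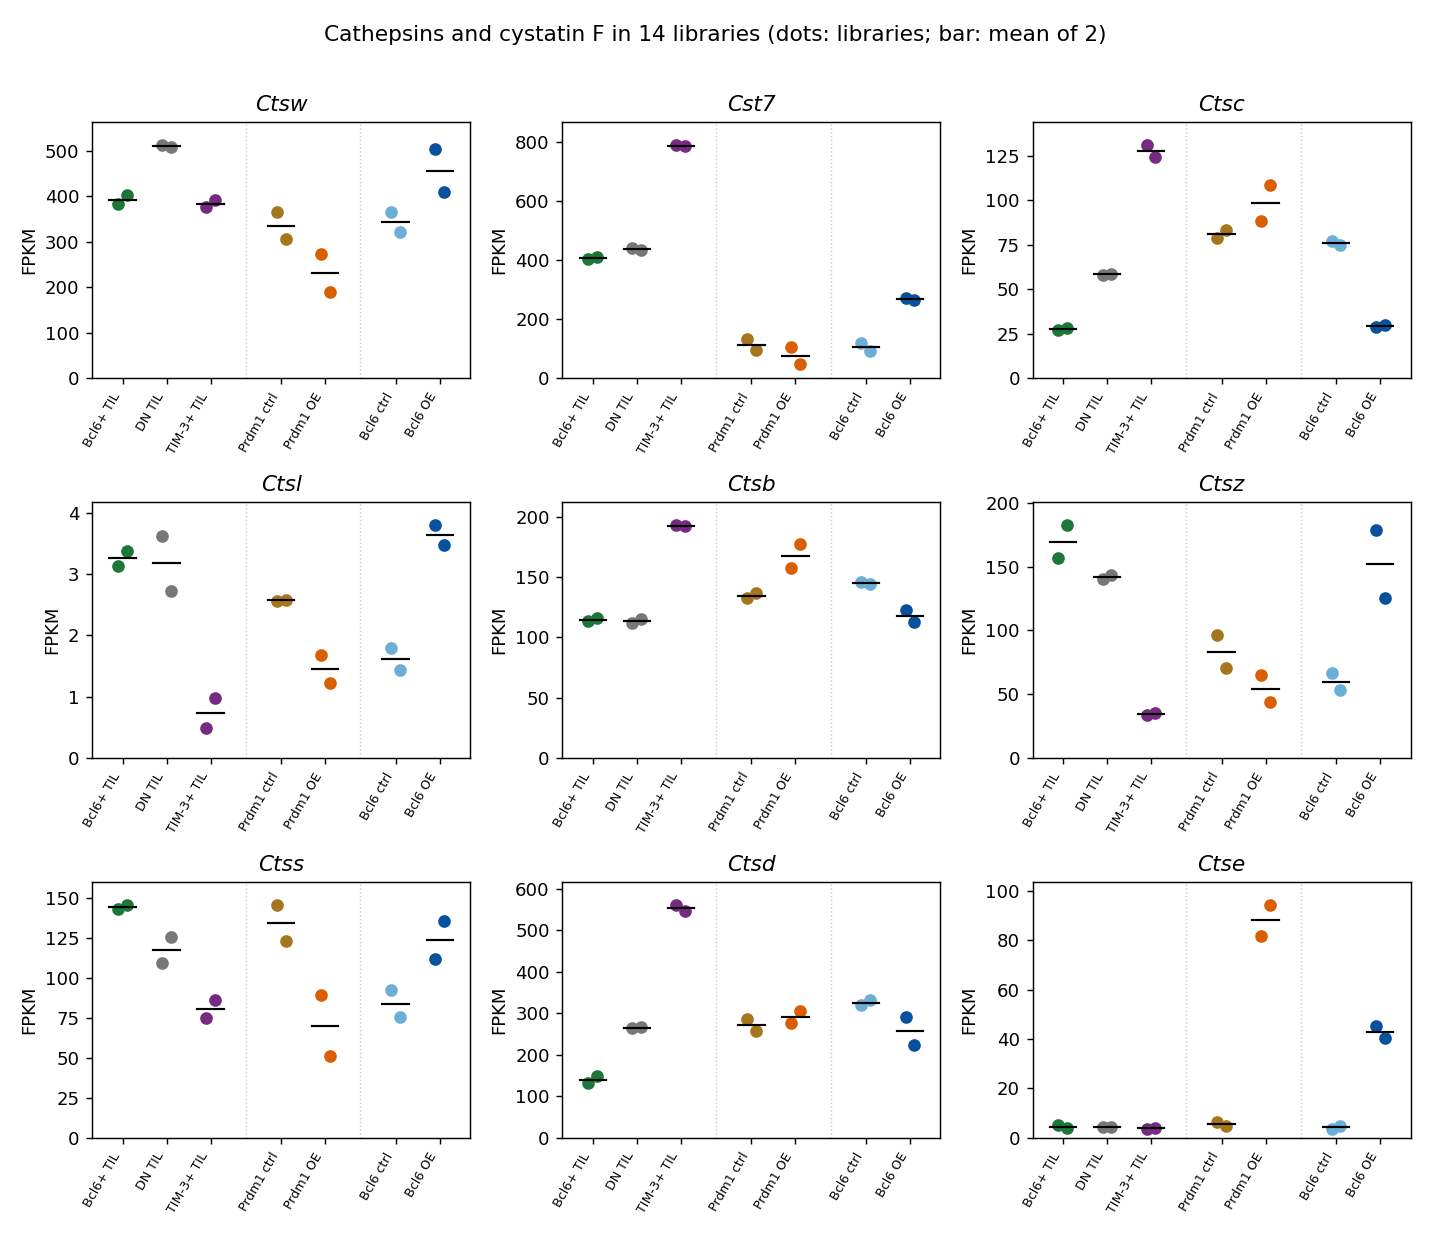
FPKM of each gene (vertical axes, linear, from 0) in the 14 libraries, with 1 dot per library and a bar at the mean of 2; OE marks overexpressing and ctrl control OT-I cells, and dotted lines part the 3 experiments. Ctsc and Ctsd step up from Bcl6+ through DN to TIM-3+ TILs, Ctsz is low in TIM-3+ TILs at 33.4 and 35.0 FPKM, and Ctse stands out in both overexpressing OT-I groups.

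Among the cysteine cathepsins, Ctsc gave the clearest order. Its FPKM was 27.2 and 28.2 in Bcl6+ (n = 2, as in every group), 58.2 and 58.6 in DN and 131 and 124 in TIM-3+ TILs. No group overlapped another, and DN cells lay between the others. It was 4.42-fold lower in Bcl6+ than in TIM-3+ cells (log2 fold change -2.14, SE 0.07, adjusted p = 2.1e-11) and 2.09-fold lower than in DN cells (-1.06, SE 0.07, adjusted p = 1.0e-07). DN and TIM-3+ cells differed by a similar step, with Ctsc 2.12-fold higher in TIM-3+ cells (1.08, SE 0.06, adjusted p = 3.5e-08).

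Ctsb, a broadly expressed lysosomal endopeptidase and carboxypeptidase, was raised in TIM-3+ cells without that order. It measured 113 and 116 FPKM in Bcl6+, 112 and 115 in DN and 193 and 192 in TIM-3+ TILs. Bcl6+ and DN cells overlapped (log2 fold change 0.03, SE 0.05, adjusted p = 0.80), and TIM-3+ cells stood above both, 1.64-fold over DN cells (0.71, SE 0.05, adjusted p = 2.0e-07).

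Ctsz, a lysosomal carboxypeptidase also called cathepsin X, ran the other way. It measured 157 and 183 FPKM in Bcl6+, 140 and 143 in DN and 33.4 and 35.0 in TIM-3+ TILs. TIM-3+ cells were far below both others, while the lowest Bcl6+ library was close to the DN libraries. Bcl6+ cells held 5.17 times as much as TIM-3+ cells (log2 fold change 2.37, SE 0.10, adjusted p = 4.3e-10), and the difference between Bcl6+ and DN cells missed the threshold (0.27, SE 0.09, adjusted p = 0.069). That last difference passed in 5 of 17 alternative settings, among them without Bcl6+ replicate 1 (0.38, adjusted p = 0.026).

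Ctss, the invariant chain protease, shared this direction with a smaller range. It measured 143 and 146 FPKM in Bcl6+, 109 and 125 in DN and 74.95 and 86.1 in TIM-3+ TILs. The groups did not overlap. Bcl6+ cells were above TIM-3+ cells (log2 fold change 0.90, SE 0.10, adjusted p = 8.0e-06), and TIM-3+ below DN cells (-0.59, SE 0.10, adjusted p = 0.00061). The difference between Bcl6+ and DN cells missed the threshold (0.32, SE 0.10, adjusted p = 0.052) but passed it in 10 of 17 alternative settings, among them without TIM-3+ replicate 1 or 2 (both 0.31, adjusted p = 0.036 and 0.037), whose libraries share the fit.

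Ctsl, an endopeptidase of many tissues, was scarce in every TIL library. It measured 3.13 and 3.38 FPKM in Bcl6+, 3.62 and 2.72 in DN and 0.480 and 0.972 in TIM-3+ TILs. The TIM-3+ libraries rested on 65 and 132 counts and differed from each other, and both lay below every Bcl6+ and DN library. The log2 fold change was 2.22 (SE 0.33, adjusted p = 0.00012) in Bcl6+ against TIM-3+ cells. It was -2.17 (SE 0.33, adjusted p = 0.00024) in TIM-3+ against DN cells. Bcl6+ and DN cells overlapped (0.05, SE 0.31, adjusted p = 0.94).

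Ctsw, also called lymphopain and largely restricted to cytotoxic lymphocytes, was abundant in all TILs and highest in DN cells. It measured 383 and 402 FPKM in Bcl6+, 512 and 508 in DN and 376 and 391 in TIM-3+ TILs. Bcl6+ and TIM-3+ cells overlapped (log2 fold change 0.09, SE 0.06, adjusted p = 0.24) while both lay below DN cells, by -0.36 (SE 0.06, adjusted p = 0.00084) and -0.46 (SE 0.06, adjusted p = 5.9e-05). The absence of a call between Bcl6+ and TIM-3+ cells depended on scaling, since total counts gave 0.28 (adjusted p = 0.0018) and TPM 0.36 (adjusted p = 0.00013).

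The aspartic cathepsins differed from each other. Ctsd, the main aspartic protease of lysosomes, had the highest FPKM of the cathepsins in TIM-3+ cells: 131 and 149 FPKM in Bcl6+, 263 and 267 in DN and 561 and 545 in TIM-3+ TILs. As for Ctsc, the groups did not overlap and DN cells lay between. Bcl6+ cells held 3.79-fold less than TIM-3+ cells (log2 fold change -1.92, SE 0.07, adjusted p = 5.4e-11) and 1.88-fold less than DN cells (-0.91, SE 0.06, adjusted p = 4.2e-07). Ctse, an endosomal relative found in stomach, skin and some immune cells, measured 5.04 and 3.74 FPKM in Bcl6+, 4.39 and 4.27 in DN and 3.71 and 3.95 in TIM-3+ TILs. Its 3 log2 fold changes lay between -0.22 and 0.26, with an SE of 0.28 and adjusted p of 0.50 to 0.96.

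Cst7 was among the most abundant members in every TIL population. It measured 405 and 410 FPKM in Bcl6+, 442 and 435 in DN and 788 and 786 in TIM-3+ TILs. TIM-3+ cells stood apart, 1.85-fold above Bcl6+ cells (log2 fold change of Bcl6+ against TIM-3+ -0.89, SE 0.06, adjusted p = 3.3e-08) and 1.74-fold above DN cells (0.80, SE 0.06, adjusted p = 2.3e-07). Bcl6+ and DN cells did not overlap but missed the threshold (-0.09, SE 0.06, adjusted p = 0.35). Because Ctsc moved more than Cst7, the ratio of their FPKM was 14.9 and 14.6 in Bcl6+, 7.59 and 7.43 in DN and 6.02 and 6.32 in TIM-3+ TILs; it is a ratio of transcript levels and no measure of inhibition.

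**Figure D2:**
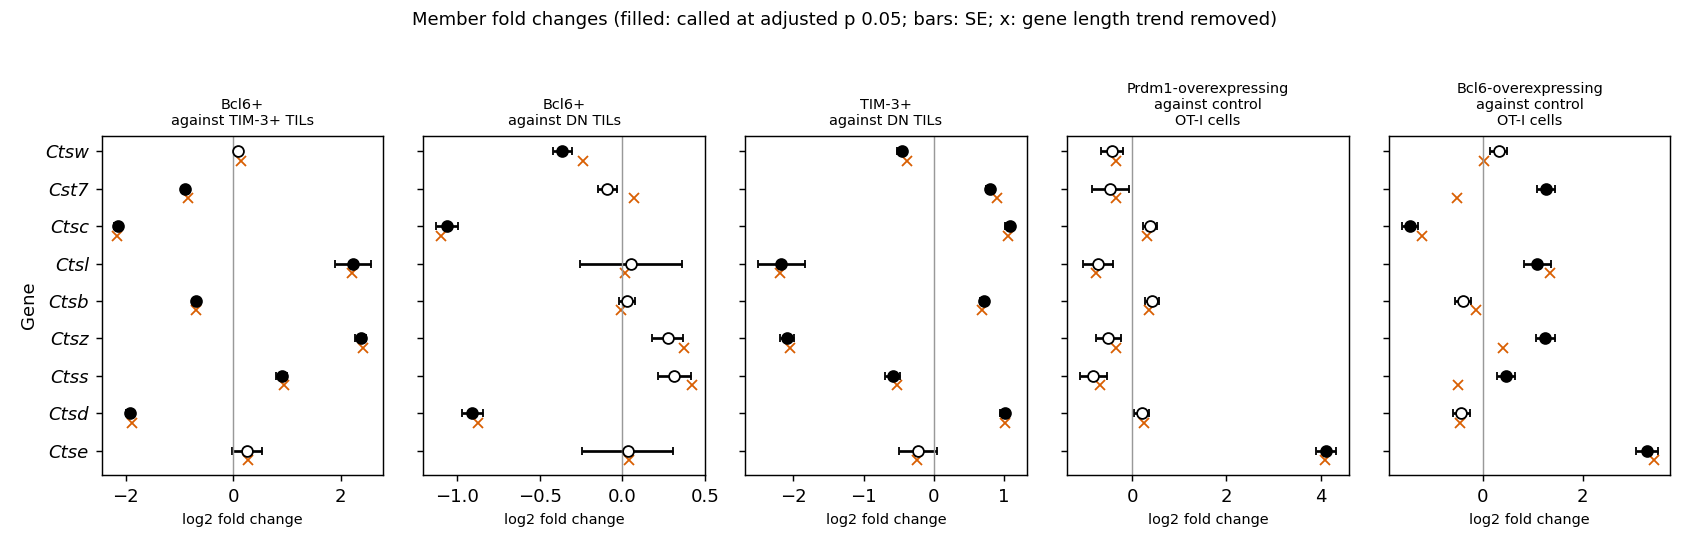
Log2 fold change (horizontal axes, whose ranges differ between panels) of each gene in the 5 comparisons, with SE bars; filled circles passed the edgeR test and orange crosses are the values with the gene length trend removed. In Bcl6-overexpressing cells the crosses of Cst7 and Ctss fall on the other side of 0, at -0.50 each, while those of Ctsc, Ctse, Ctsl and Ctsz keep their side.

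Macrophage markers moved with some of these genes. Their summed level was 214 and 191 FPKM in Bcl6+, 120 and 125 in DN and 55.9 and 42.4 in TIM-3+ TILs, the order of Ctss and, for the highest and the lowest group, of Ctsz. Cd68, Lyz2 and Apoe had the highest FPKM of the 18. Of 11 markers tested, 9 were higher in Bcl6+ than in TIM-3+ cells and none lower, where 19.1% of all genes were higher. In TIM-3+ against DN cells 6 were lower and none higher, where 13.2% of all genes were lower. In Bcl6+ against DN cells 5 were higher and 1 lower, where 6.49% and 7.69% of all genes were. The counts of other markers below are to be read against the same shares. Lyz2, the macrophage lysozyme, measured 58.3 and 63.2, 44.9 and 44.5, and 19.7 and 12.0 FPKM in the 3 groups, Cd68, a macrophage lysosomal protein, 93.6 and 70.7, 43.5 and 42.2, and 16.6 and 14.03, and C1qa, a complement gene of macrophages, 9.16 and 9.35, 2.23 and 1.995, and 3.04 and 2.804. The macrophage receptor genes Csf1r and Adgre1 were low in all TILs, at 0.127 to 3.32 and 0.0296 to 2.10 FPKM. Csf1r was nonetheless called, with means of 2.88, 1.28 and 0.142 FPKM in Bcl6+, DN and TIM-3+ TILs. Its log2 fold change was 4.39 in Bcl6+ against TIM-3+ cells (adjusted p = 2.6e-06) and -3.21 in TIM-3+ against DN cells (adjusted p = 7.3e-05). Adgre1 did not pass the filter for testing.

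Divided by the macrophage sum, Ctsz was 0.733 and 0.954 in Bcl6+, 1.17 and 1.15 in DN and 0.599 and 0.824 in TIM-3+ cells. The same ratio for Ctss was 0.669 and 0.762 in Bcl6+, 0.912 and 1.002 in DN and 1.34 and 2.03 in TIM-3+ cells, the reverse of the order of Ctss itself. For Ctsl it was 0.0147 and 0.0177, 0.0303 and 0.0218, and 0.00860 and 0.0229, with TIM-3+ replicates far apart. Other markers moved as well: of 6 dendritic cell markers tested, 2 were higher and 1 lower in Bcl6+ than in TIM-3+ cells, and 1 was higher and 3 lower in TIM-3+ than in DN cells, with summed levels of 12.5 and 16.7, 23.5 and 22.4, and 14.8 and 14.5 FPKM in Bcl6+, DN and TIM-3+ TILs. Erythroid markers summed to 54.6 and 58.8, 91.5 and 88.1, and 25.4 and 31.6 FPKM, and 4 of 5 were lower in TIM-3+ than in DN cells. The part of RNA from any of these cells in the higher Ctsz, Ctss and Ctsl of Bcl6+ and DN cells, or in the MHC class II genes, was not tested. The genes Ctsc, Ctsd, Ctsb and Cst7 were highest in the TIM-3+ libraries, where the macrophage sum was lowest. The summed level of 7 CD8 T cell identity genes was highest there too. It was 1955 and 1975 FPKM in Bcl6+, 2264 and 2240 in DN and 3163 and 3097 in TIM-3+ TILs. Of these 7 genes, 6 were lower and 1 higher in Bcl6+ than in TIM-3+ cells, with a median log2 fold change of -0.64. In TIM-3+ against DN cells 4 were higher and none lower, with a median of 0.34. The part of this difference in Ctsc, Ctsd, Ctsb and Cst7 was not tested.

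**Figure D3:**
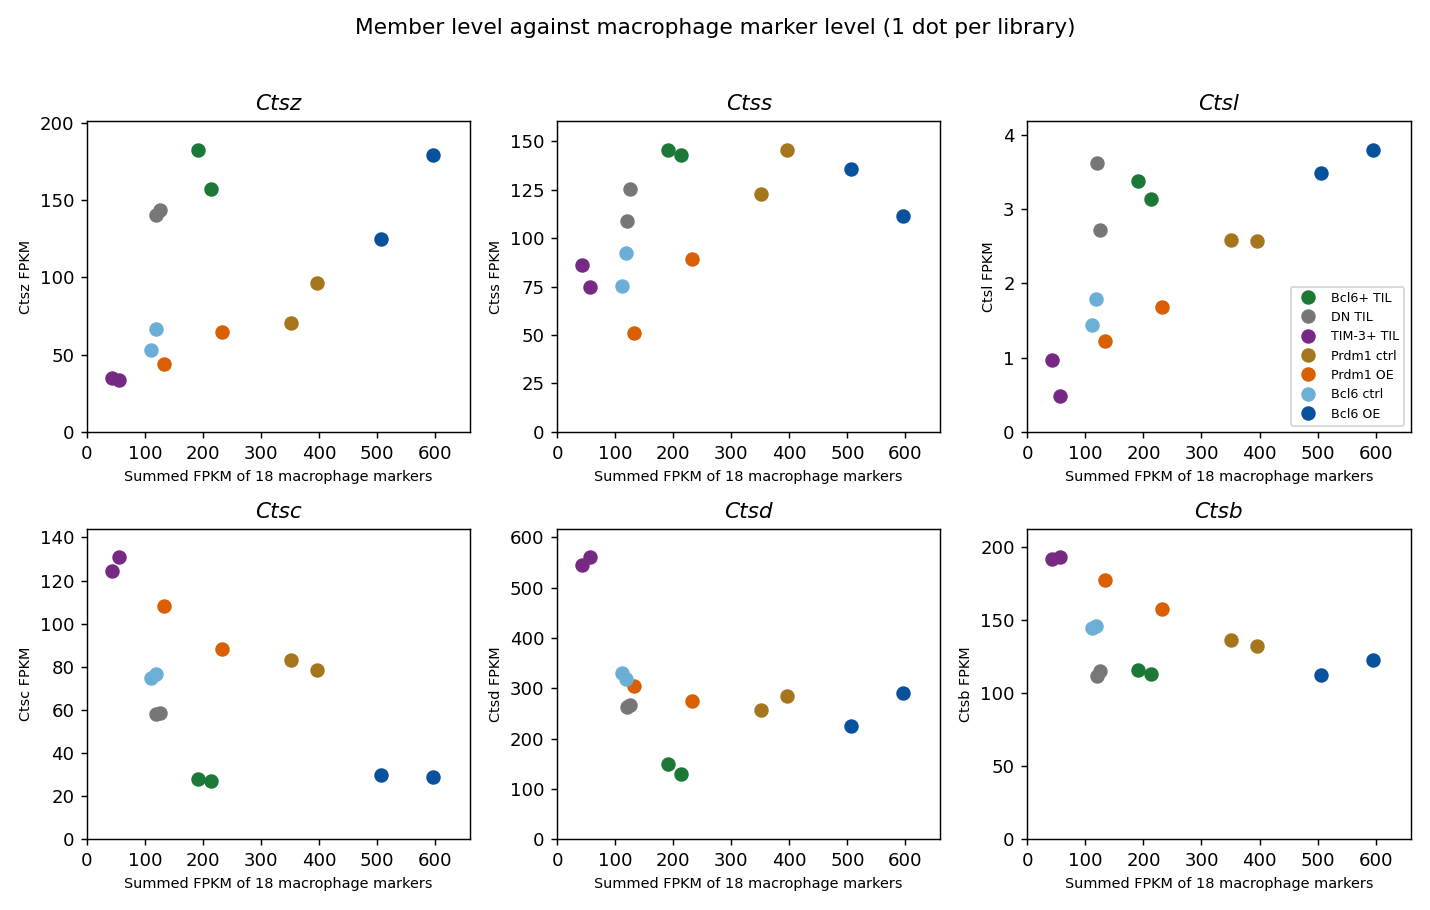
FPKM of 6 cathepsins (vertical axes, from 0) against the summed FPKM of 18 macrophage and monocyte markers (horizontal axes), 1 dot per library, coloured by group. TIM-3+ TILs, with sums of 55.9 and 42.4, have the lowest Ctsz and Ctsl and the highest Ctsc, Ctsd and Ctsb; experiments were normalized separately, so distances between them are not comparisons.

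The granule proteins that cathepsins C or L process had the same direction as Ctsc. Of 10 tested, 9 were lower in Bcl6+ than in TIM-3+ cells and none higher, including the pore-forming protein gene Prf1 (log2 fold change -3.60) and the granzyme genes Gzmb (-5.10), Gzmf (-4.67) and Gzmd (-3.81). Against DN cells 9 of 10 were lower in Bcl6+ cells, and 7 were higher and 1 lower in TIM-3+ cells. Their median log2 fold change was -3.87 in Bcl6+ against TIM-3+ cells, beside 0.01 over all genes.

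Other cathepsins and their inhibitors were mixed. Of 5 other cathepsins and legumain tested between Bcl6+ and TIM-3+ cells, 3 were higher in Bcl6+ cells, namely Ctsh (log2 fold change 3.89), Ctsk (4.05) and Lgmn, the asparaginyl endopeptidase (2.35), each at a mean of 6.52 FPKM or less, and Ctsa, a carboxypeptidase, was lower (-0.65). The inhibitor gene Cst3, for cystatin C, was higher in Bcl6+ cells (1.25), at 294 and 318 FPKM in Bcl6+, 277 and 273 in DN and 138 and 130 in TIM-3+ TILs, so its order opposed that of Cst7. Ctla2a, which encodes a protein like a cathepsin propeptide, was lower in Bcl6+ than in TIM-3+ (-0.51) and DN cells (-0.78).

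For the rest of the lysosome, counts of calls are to be read against the 38.6% of all genes called between Bcl6+ and TIM-3+ cells and the 28.2% between TIM-3+ and DN cells. The ATPase and membrane protein lists had smaller called shares than that, and the hydrolase list was near it in TIM-3+ against DN cells. Of 29 genes tested in the lysosomal hydrolase list, 5 were higher and 10 lower in Bcl6+ than in TIM-3+ cells. That list also holds lysosomal proteins that are not hydrolases, such as Npc2. The sulfatase gene Arsb was at -2.09, Man2b1 at -0.83 and Npc2 at -0.79. In TIM-3+ against DN cells, 7 genes of the list were higher and none lower. Of 7 genes that sort enzymes to lysosomes, 4 were lower and 2 higher in Bcl6+ than in TIM-3+ cells, with Gnptab, which makes the mannose phosphate tag, at -1.79. Of 16 vacuolar ATPase subunits, which acidify lysosomes, 3 were lower and none higher; of 13 lysosomal membrane proteins, 1 was higher, Lamp1 (1.40), and 2 were lower. MHC class II pathway genes went with Ctss and Ctsz: 8 of 8 were higher in Bcl6+ than in TIM-3+ cells, such as the invariant chain gene Cd74 (3.62) and H2-Eb1 (2.45), and 7 of 8 were lower in TIM-3+ than in DN cells. The lysosome regulator genes Tfeb and Tfe3 differed by 0.07 (adjusted p = 0.89) and 0.36 (adjusted p = 0.045) between Bcl6+ and TIM-3+ cells.

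**Figure D4:**
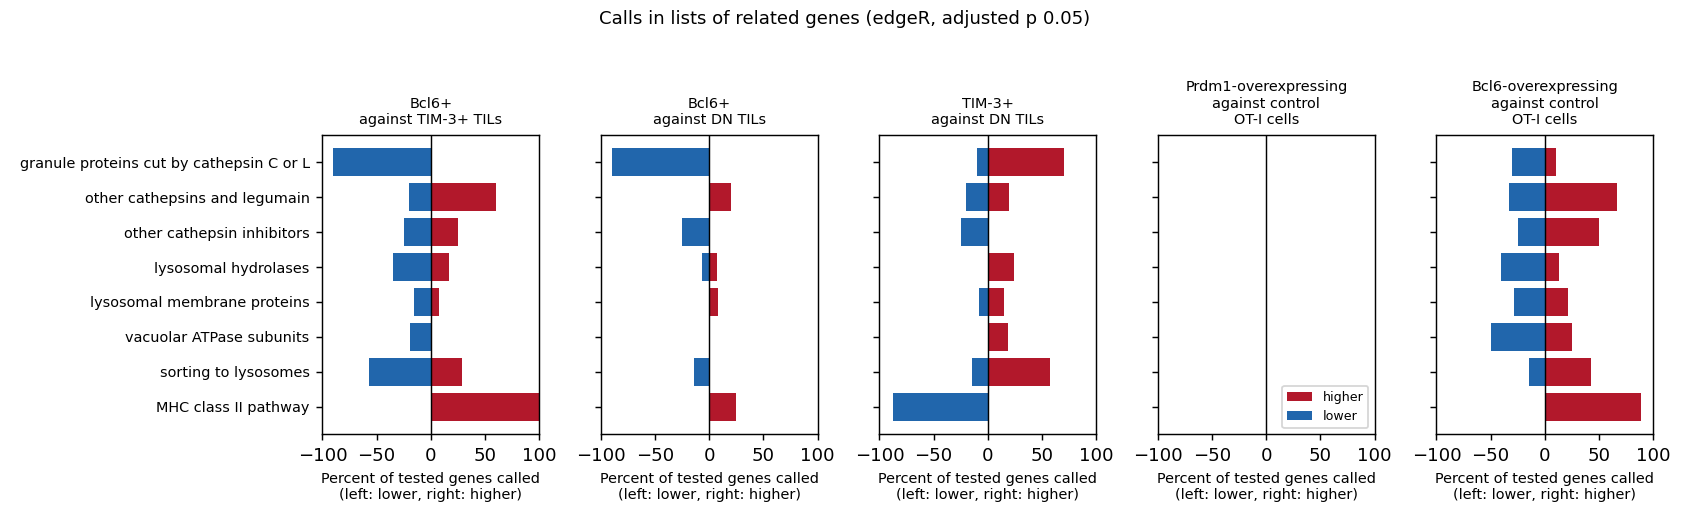
Percent of the tested genes of 8 related lists that were called higher (red, to the right) or lower (blue, to the left) in each comparison; left of 0 the axis counts percent lower. Granule proteins and MHC class II genes point in opposite directions in the TIL comparisons, and no gene of these lists was called in Prdm1-overexpressing cells.

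In OT-I cells, Prdm1 overexpression went with 1 called member, Ctse, where 1.36% of the 9947 genes tested were called, 1.16% higher. Ctse measured 81.7 and 94.3 FPKM in Prdm1-overexpressing cells and 6.15 and 4.73 in controls. The groups lay far apart. It was 17.3-fold higher (log2 fold change 4.11, SE 0.21, adjusted p = 0.0012), had the smallest p of the 9947 genes and ranked 10 by size of increase, and it passed in each of the 14 alternative settings run, at 3.79 to 4.32. Its mean share of the summed FPKM of the 9 was 8.23% in overexpressing cells and 0.467% in controls.

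The other 8 members did not pass in the fit without a replicate block. With that block, Ctsb was called higher and Ctss, Ctsw, Ctsz and Cst7 lower. Over all genes, 1002 were then called higher and 657 lower, in place of 115 and 20. The labels do not say whether replicate numbers mark shared mice. Ctsc measured 88.2 and 108 FPKM against 78.6 and 83.4 in controls (log2 fold change 0.38, SE 0.16, adjusted p = 0.25), and Ctsb 158 and 178 against 132 and 136 (0.42, SE 0.15, adjusted p = 0.19). Ctsd was within the spread, at 276 and 305 against 285 and 257 FPKM (0.20, SE 0.15, adjusted p = 0.53). The Ctsc and Ctsb groups did not overlap, and the Ctsd groups did.

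The remaining members had lower values with overexpression, most of all in replicate 2. The summed level of 7 CD8 T cell identity genes was also lowest in that library. It was 1875 and 990 FPKM in overexpressing replicates 1 and 2, and 1651 and 1262 in controls. The part of this difference in the member values was not tested. Ctss measured 89.4 and 50.9 FPKM against 146 and 123 (log2 fold change -0.82, SE 0.29, adjusted p = 0.19), Ctsz 64.7 and 43.7 against 96.4 and 70.1 (-0.51, SE 0.27, adjusted p = 0.35) and Ctsl 1.68 and 1.22 against 2.57 and 2.58 (-0.72, SE 0.32, adjusted p = 0.28). Ctsw measured 273 and 189 against 365 and 305 (-0.43, SE 0.23, adjusted p = 0.36) and Cst7 106 and 46.1 against 133 and 94.4 (-0.46, SE 0.39, adjusted p = 0.57). The Cst7 groups overlapped. Without Prdm1-overexpressing replicate 1, Ctss (-1.34, adjusted p = 0.0031), Ctsw (-0.77, adjusted p = 0.022) and Cst7 (-1.25, adjusted p = 0.013) passed.

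The macrophage sum was 395 and 352 FPKM in the Prdm1 controls and 233 and 133 in the overexpressing cells, the same side as Ctss, Ctsz and Ctsl; 0 of 13 markers tested passed edgeR. Lyz2 measured 245 and 218 FPKM in controls and 110 and 62.9 in overexpressing cells. The part of macrophage RNA in these values was not tested. The high values of Ctse were in the overexpressing libraries, which had the lower macrophage sums. Of the neutrophil markers only Mmp9 was tested, and it was higher, at 9.36 and 13.7 FPKM against 0.104 and 0.0143. No gene of the 9 related lists passed, Prf1 having 652 and 833 FPKM against 458 and 493 (log2 fold change 0.74, adjusted p = 0.083).

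In Bcl6-overexpressing OT-I cells, 6 of 9 members passed, 5 higher and 1 lower, where 48.8% of the 9669 genes tested were called, 25.4% higher and 23.4% lower. With the trend of each library on gene length removed, 7 passed, 3 higher and 4 lower, so only members called the same way under both are given a direction: Ctse, Ctsl and Ctsz were higher and Ctsc was lower. Over all genes, 2459 were higher and 2261 lower, 2844 and 1883 with the length trend removed, and 1741 and 3784 with TPM.

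Ctse again changed most. It measured 45.4 and 40.4 FPKM in Bcl6-overexpressing cells and 3.40 and 4.89 in controls. The overexpressing libraries were alike and far above the controls. It was 9.72-fold higher (log2 fold change 3.28, SE 0.22, adjusted p = 1.3e-10; 3.42 with the length trend removed). It was thus higher in both overexpression experiments, which have different control libraries, and is 1 of 18 genes called higher in both. Of 9345 genes tested in both experiments, 2238 were called higher with Bcl6 and 94 with Prdm1, and the 18 are 0.804% and 19.1% of these. More of the 94, 50 or 53.2%, were called lower with Bcl6.

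Ctsc fell. It measured 28.8 and 30.0 FPKM against 76.9 and 74.8 in controls. Both pairs were tight and far apart. It was 2.74-fold lower (log2 fold change -1.45, SE 0.17, adjusted p = 4.2e-07; -1.21 with the length trend removed). The overexpressing cells thus stood below their controls as Bcl6+ TILs stood below TIM-3+ and DN TILs, in experiments that share no library.

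Ctsz and Ctsl rose. Ctsz measured 179 and 125 FPKM against 66.6 and 53.1 in controls (log2 fold change 1.26, SE 0.19, adjusted p = 2.2e-05), which shrank to 0.41 (adjusted p = 0.049) with the length trend removed. Ctsl, with a long implied gene length of 6.71 kb, measured 3.80 and 3.48 FPKM against 1.79 and 1.43 (1.09, SE 0.27, adjusted p = 0.0023, or 1.35 with the trend removed). Neither pair of groups overlapped, and the size of the Ctsz difference depended on how length was treated.

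For Cst7 and Ctss, with short implied gene lengths of 1.02 and 1.40 kb, the direction depended on gene length. Cst7 measured 273 and 263 FPKM against 118 and 91.3 in controls, a log2 fold change of 1.27 (SE 0.18, adjusted p = 6.4e-06), but -0.50 (adjusted p = 0.012) with the length trend removed. Ctss measured 112 and 136 against 92.4 and 75.5 FPKM, 0.47 (SE 0.18, adjusted p = 0.035), and -0.50 (adjusted p = 0.019) with the trend removed. No direction can be given for either. Ctss also missed the threshold without control replicate 1 (0.61, adjusted p = 0.080) or 2 (0.33, adjusted p = 0.37) or overexpressing replicate 2 (0.32, adjusted p = 0.10). The ratio of Cst7 to Ctsc FPKM, 9.47 and 8.77 against 1.54 and 1.22, carries the same limit, since the implied gene length of Ctsc is 6.002 kb.

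Ctsb, Ctsd and Ctsw did not pass, and each depended on the setting. Ctsb measured 122 and 113 FPKM against 146 and 145 (log2 fold change -0.39, SE 0.17, adjusted p = 0.056) and Ctsd 291 and 224 against 319 and 331 (-0.42, SE 0.17, adjusted p = 0.051). Both sat close to the threshold and passed in 5 of 14 alternative settings each. With the length trend removed Ctsb was at -0.14 (adjusted p = 0.50) and Ctsd passed at -0.45 (adjusted p = 0.027). Without overexpressing replicate 1 they passed (-0.46, adjusted p = 0.0038, and -0.62, adjusted p = 0.00015), and Ctsb also without replicate 2 (-0.34, adjusted p = 0.035). Ctsw measured 504 and 408 against 364 and 322 FPKM (0.33, SE 0.17, adjusted p = 0.13), or 0.47 (adjusted p = 0.0040) without overexpressing replicate 2 and 0.04 (adjusted p = 0.87) with the length trend removed.

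**Figure D5:**
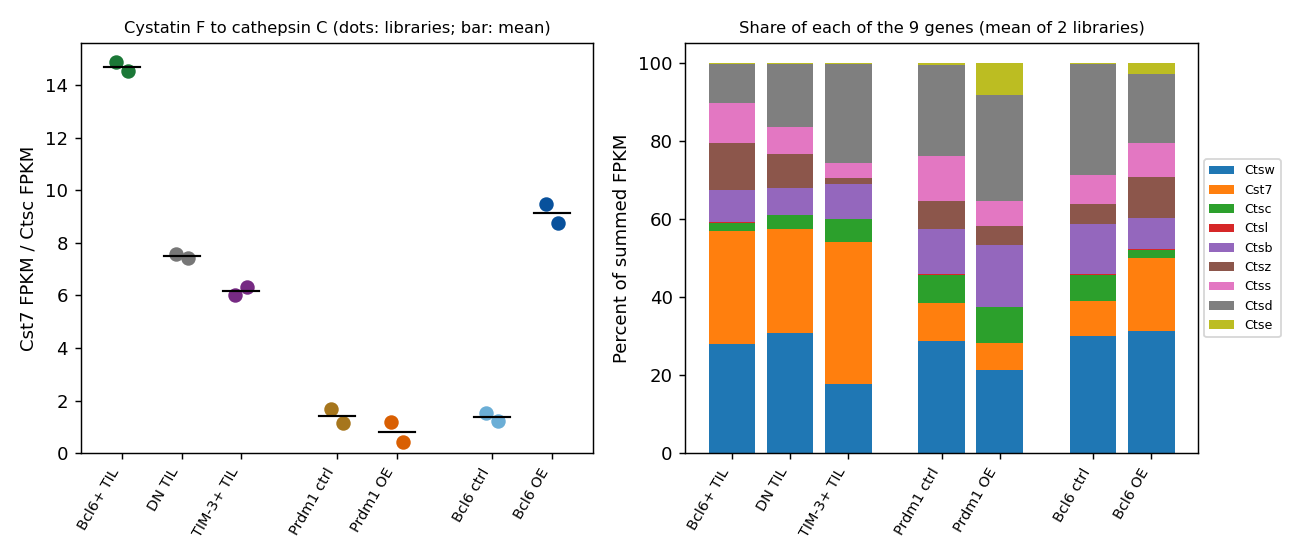
Left, the ratio of Cst7 to Ctsc FPKM per library (dots) with the mean of 2 (bar); right, the share of each gene in the summed FPKM of the 9, as the mean of 2 libraries. The ratio is 14.9 and 14.6 in Bcl6+ TILs against 6.02 and 6.32 in TIM-3+ TILs, and Ctse makes up 8.23% in Prdm1-overexpressing and 2.96% in Bcl6-overexpressing OT-I cells.

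Macrophage, neutrophil and erythroid RNA was higher in the Bcl6-overexpressing libraries than in their controls. The macrophage sum was 595 and 506 FPKM against 119 and 111 in controls, and 13 of 13 tested markers were higher, or 11 with the length trend removed. Lyz2 measured 321 and 279 against 57.7 and 53.8 FPKM, Apoe, a lipid carrier of macrophages, 106 and 85.1 against 8.18 and 7.73, and C1qa 17.4 and 18.01 against 0.712 and 0.885. Neutrophil S100a8 was at 17.6 and 23.8 FPKM with 0 counts in controls, the globin gene Hba-a1, whose reads may be shared with Hba-a2, at 11.4 and 9.66 with 0 counts, and Ctsg, a granule protease of myeloid cells, at 7.91 and 7.98 against 0.224 and 0.170.

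These values lie on the side of the higher Ctsz, Ctsl and Ctse, and their part in them was not tested. Divided by the macrophage sum, Ctsz was 0.3005 and 0.247 in overexpressing cells against 0.562 and 0.478 in controls, and Ctsl 0.00638 and 0.00687 against 0.0151 and 0.0129. The same ratio for Ctse went the other way, at 0.0762 and 0.0797 in overexpressing cells against 0.0287 and 0.0441 in controls. That ratio covers macrophage markers only. The summed neutrophil markers were 50.3 and 48.9 FPKM in overexpressing cells against 2.26 and 1.04 in controls, the same side as Ctse. The part of neutrophil RNA in Ctse was not tested. The fall of Ctsc ran against the marker sum.

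Of the related genes in Bcl6-overexpressing cells, Prf1 (log2 fold change -1.16) and Gzmb (-1.13) were lower, with 3 of 10 granule proteins lower and 1 higher, or 8 lower and none higher with the length trend removed. Counts of calls in these lists are to be read against the 48.8% of all genes called here, 25.4% higher and 23.4% lower. Among inhibitors, Cst3 was higher (2.41; 1.26 with the trend removed), while Cstb, for cystatin B, was at 3.20 but 0.26 (adjusted p = 0.29) with the trend removed. MHC class II genes were higher in 8 of 9 under both, with Cd74 at 1.83 and H2-Eb1 at 1.92. Of 30 genes of the hydrolase list 4 were higher and 12 lower, or 6 and 7 with the trend removed, and Asah1 (-1.31) was lower under both. The share of this list called in either direction was near the 48.8% of all genes. Among vacuolar ATPase subunits 4 of 16 were higher, such as Atp6v1f (3.11; 1.51 with the trend removed), and 8 lower. With the trend removed 5 subunits were higher and 8 lower. The share of subunits called higher was near the 25.4% of all genes, while the share called lower lay above the 23.4%. Lgmn (1.73) was higher in these cells as in Bcl6+ TILs.

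The genes whose levels tracked each member most closely were found across all libraries. Over the 14 libraries, with log2(CPM + 1) centred within each experiment and 8779 genes compared, the nearest genes by Pearson r were Cd74 (0.97) and Ccr6 (0.97) for Ctsz, Lrrc8c (0.99) and F2r (0.99) for Ctsc, and Anxa6 (0.99) and Abcb9 (0.98) for Ctsd. For Ctsb they were Arl6ip1 (0.98) and Ccnb1 (0.97), for Ctsl Plaur (0.97) and Trib1 (0.97), for Ctss Hmga1 (0.96) and Cd320 (0.96), and for Ctsw Timm50 (0.95) and Nip7 (0.93). Ctse was nearest to Csrp1 (0.98) and Gpatch3 (0.97), and Cst7 to Fxyd5 (0.98) and Nabp2 (0.97). These are descriptions, as the libraries fall into few groups and the genes of a library share its depth and cell make-up.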

How the data were processed

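The deposited tables hold, per the file headers, a whole-number count and an FPKM value for each gene and library; both were made by the authors. By the submitters' processing notes, TIL libraries went with featureCounts, Subread, Bowtie2, DESeq2 and edgeR, and OT-I libraries with RSEM, featureCounts, DESeq2 and HISAT2; the build was mm10. Neither tool versions nor strand use nor the annotation was given in the sources used here. Count and FPKM imply a gene length of 1.34 kb for Ctsw in TIL and 1.95 kb in OT-I tables, which were normalized separately, so levels were compared only within an experiment.

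Counts were tested two-sided in edgeR 4.0.16 (R 4.3.3) by its quasi-likelihood test with TMM scaling. The filter was a mean FPKM of 1, and p-values were adjusted by Benjamini-Hochberg over all genes, with calls at 0.05. One fit held the 6 TIL libraries, and Prdm1 and Bcl6 experiments were fitted apart, on 4 libraries each. Each SE is the size of the log2 fold change divided by the root of its F statistic. The scripts were tested on simulated data.

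The members and gene lists were chosen with earlier results of these data known. All 9 members are named in each comparison; of each list, the genes with the smallest p, up to 4 between Bcl6+ and TIM-3+ TILs and up to 2 elsewhere; of the markers, the 3 with the highest FPKM and Lyz2, Csf1r, Adgre1, C1qa and Cd68. Alternatives were DESeq2 1.42.0 (test and size factors), total counts, limma 3.58.1 on log2 FPKM and TPM, other filters, a replicate block, single libraries left out and, added after the length trend was seen, a per-library lowess on gene length. Gene positions came from GENCODE M21, and promoter windows, matched by symbol for 6 of 9 members, from RefSeq.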

Additional observations from a re-analysis of the deposited data

How the results depend on the processing

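Each member had 17 alternative settings per TIL comparison and 14 per overexpression experiment. Of 711 values, 659 kept their direction and side of the threshold, 39 newly passed, 5 no longer passed (all Ctss in Bcl6-overexpressing cells: 0.42 with total counts, 0.13 with TPM, 0.61, 0.33 and 0.32 without single libraries) and 8 changed sign. With the length trend removed the sign changed for Ctsb (-0.0065) and Cst7 (0.068) between Bcl6+ and DN TILs, and for Ctss (-0.50) and Cst7 (-0.50) in Bcl6-overexpressing cells. It also changed for Ctsw there with TPM (-0.018), and between Bcl6+ and DN TILs for Ctse without Bcl6+ replicate 1 (-0.20; range with 1 library left out -0.20 to 0.23) and for Ctsl without Bcl6+ replicate 2 (-0.0010) or DN replicate 2 (-0.15; range -0.15 to 0.28). The cause was not tested.

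Between Bcl6+ and DN TILs, 5 members passed with the DESeq2 test, limma on TPM, the fit of these 2 groups alone and the length trend removed, as Ctss and Ctsz joined; 3 to 4 passed with 1 library left out. Leaving out 1 library gave 735 to 1485 genes called there and 1696 to 2947 between TIM-3+ and DN TILs, fewest without DN replicate 1 (735 and 1696) or 2 (766 and 1734). In Prdm1-overexpressing cells 2 members passed with the DESeq2 test and limma on TPM, and 1 to 4 with 1 library left out. All genes called there numbered 275 with DESeq2 size factors, 294 with total counts, 586 with the DESeq2 test, 609 with limma on TPM, 50 with edgeR's own filter, 44 with no filter and 3 to 643 with 1 library left out (7 and 3 without control replicate 1 and 2, 643 without overexpressing replicate 1). Total counts moved the median of all genes to 0.20 between Bcl6+ and TIM-3+ and to -0.18 between TIM-3+ and DN TILs, and TPM to 0.26, -0.19 and, in Bcl6-overexpressing cells, -0.32.

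Control and overexpressing OT-I cells were co-transferred, but the labels do not say that a replicate number marks a shared mouse, so samples were not treated as pairs; the correlation of replicate 1 deviations was 0.00074 to 0.032 between TIL groups, 0.32 with Prdm1 overexpression and -0.064 with that of Bcl6. With the replicate block, 6 members and 1659 genes were called in Prdm1-overexpressing cells (Ctse and Ctsb higher; Ctss, Ctsw, Ctsz and Cst7 lower), 4 members between Bcl6+ and DN TILs, where Ctss passed (0.32), and 7, 8 and 6 in the other comparisons. Arms left with 1 library borrow the spread of the other groups.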
